A study of Mus musculus with 12 samples.

Results

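The genes described here are the enzymes and the transporter that take the liver from pyruvate, lactate and glycerol to free glucose, together with the transcriptional coactivator Ppargc1a. They are 10 genes of the 55385 features in the liver table: G6pc, G6pc3, Slc37a4, Pck1, Pck2, Pcx, Fbp1, Gpd1, Gyk and Ppargc1a. Each was found by its gene name and had 1 row, Gyk being listed under its current symbol Gk. All 10 passed the filter used for testing, a mean of at least 1 TPM (a transcript's share of a liver's RNA, scaled for transcript length) over the 12 mice, which 16378 features passed. TPM levels can therefore be set side by side between genes within a liver.

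The livers came from male C57BL/6 mice, 7 weeks old, that all carried adenovirus and were killed 7 days after the injection of a total of 500000000 plaque-forming units. mGULL is a long noncoding RNA of mouse liver and hGULL its human functional counterpart, and the study was concerned with their link to CRTC2, a coactivator of the transcription factor CREB. The 4 mice of Ad-Ctrl received a Lac virus and the pAdv5 virus, the 4 mice of Ad-shmGULL received the shmGULL virus against mGULL and pAdv5, and the 4 mice of Ad-shmGULL+hGULL received shmGULL and a virus expressing hGULL. These groups are called control, knockdown and rescue below. Adenovirus reaches mainly hepatocytes, no group without virus was included, and the feeding state at killing was not given in the sources used here. Whether mGULL fell or hGULL was expressed in these livers is not reported here.

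Gluconeogenesis keeps blood glucose up between meals, and the liver is its main site. Pyruvate carboxylase makes oxaloacetate, the phosphoenolpyruvate carboxykinases turn it into phosphoenolpyruvate, fructose-1,6-bisphosphatase removes a phosphate near the end of the pathway, and glucose-6-phosphatase releases glucose. Glucagon raises cyclic AMP, which activates CREB and its CRTC coactivators at genes such as Pck1, G6pc and Ppargc1a, while insulin represses them. Glucose-6-phosphatase expression in liver also responds to carbohydrate.

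The members lie on 9 chromosomes of the GRCm38.p6 mouse genome, the build the labels name, and all 10 are protein-coding. The RefSeq gene spans are chr11:101367716-101377903 for G6pc, chr11:102189699-102194081 for G6pc3, chr9:44396946-44402966 for Slc37a4, chr2:173153073-173159274 for Pck1 and chr14:55540263-55550020 for Pck2. They are chr19:4510472-4621752 for Pcx, chr13:62864753-62888298 for Fbp1, chr15:99717587-99725014 for Gpd1, chrX:85701937-85776819 for Gyk and chr5:51454249-52115853 for Ppargc1a.

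Promoter sequence is shown for G6pc and Pck1, whose fold changes after the knockdown had opposite signs (only that of G6pc passed the test), and for Ppargc1a, whose level stayed within the spread between mice. Each is the RefSeq stretch from 250 bases before to 50 bases after a transcription start, printed 5′ to 3′ on the gene's strand, with capitals at each match to TGACG or its reverse complement CGTCA, the shorter form of the cyclic AMP response element (CRE) bound by CREB. G6pc is on the plus strand at chr11:101367466-101367765, Pck1 on the plus strand at chr2:173152823-173153122, and Ppargc1a on the minus strand at chr5:51567676-51567975.
G6pc: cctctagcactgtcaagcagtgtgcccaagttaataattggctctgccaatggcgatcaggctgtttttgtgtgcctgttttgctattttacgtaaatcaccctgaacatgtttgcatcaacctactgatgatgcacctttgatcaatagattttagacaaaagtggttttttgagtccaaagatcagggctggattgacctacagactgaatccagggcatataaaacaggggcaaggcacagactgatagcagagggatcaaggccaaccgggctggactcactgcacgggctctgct
Pck1: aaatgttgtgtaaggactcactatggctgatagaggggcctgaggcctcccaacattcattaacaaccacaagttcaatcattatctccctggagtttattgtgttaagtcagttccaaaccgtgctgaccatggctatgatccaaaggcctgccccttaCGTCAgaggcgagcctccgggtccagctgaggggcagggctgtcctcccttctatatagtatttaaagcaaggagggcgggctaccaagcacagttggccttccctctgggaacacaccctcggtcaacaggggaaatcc
Ppargc1a: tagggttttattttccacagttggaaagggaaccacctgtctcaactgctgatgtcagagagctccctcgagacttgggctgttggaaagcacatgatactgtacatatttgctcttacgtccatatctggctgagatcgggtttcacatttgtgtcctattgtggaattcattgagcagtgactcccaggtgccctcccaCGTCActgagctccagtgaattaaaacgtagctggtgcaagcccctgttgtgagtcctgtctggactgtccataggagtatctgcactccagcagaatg
The Pck1 promoter held CGTCA from base -90 to base -86 and the Ppargc1a promoter held it from base -49 to base -45, counted from the start. The G6pc promoter held neither form within this window, and it held the TATA box letters TATAAA from base -29 to base -24. Only exact letters were searched, so a CREB site spelled otherwise would not be marked.

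The table of promoters had an entry for 9 of the 10 members, with 12 promoters in all, and none for Gpd1. Both strands were searched. The full CRE TGACGTCA was in none of the 9 members' promoters and in 1.79% of all 32851 promoters of this length. The shorter form TGACG, which is part of the full CRE, was in those of 4 members (Slc37a4, Pck1, Gyk and Ppargc1a) and in 20.8% of all promoters. The forkhead letters GTAAACA, read by FOXO factors, were in none of the members' promoters and in 3.65% of all. The glucocorticoid receptor letters TGTTCT were in those of G6pc3 and Gyk and in 19.0% of all, and TATAAA was in those of G6pc and Slc37a4 and in 13.6% of all. A member counted when any of its promoters held the letters, while the percentages count single promoters, so the member counts and the percentages are in unlike units. These are matches of exact letters within this window only. A site spelled otherwise or lying farther from the start was not seen, so a missing match does not mean a missing site.

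The table gave TPM without counts, so the depth behind each value is unknown, and every liver's column summed to 1000000 TPM. Between 15525 and 16929 features per mouse were above 1 TPM. The 20 most abundant features took 27.3% to 34.3% of the TPM in the control and knockdown livers and 24.9% to 26.8% in the rescue livers. Log2 values of 2 mice of a group correlated at Pearson's r of 0.964 to 0.986 across genes, and no pair of libraries was identical. The labels do not say more of how the mice were handled, so group and unrecorded handling cannot be told apart. The p-values only set group differences against the spread between these mice.

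In control livers the 10 transcripts spanned a wide range. Pck1, the cytosolic phosphoenolpyruvate carboxykinase, had the highest level at 3917 ± 772 TPM (SD, n = 4), followed by Fbp1 at 1378 ± 95.2 TPM, G6pc at 505 ± 52.8 TPM, Pcx at 410.3 ± 8.37 TPM, Gpd1 at 326 ± 19.95 TPM, Slc37a4 at 210.3 ± 19.3 TPM and Gyk at 59.8 ± 9.23 TPM. Ppargc1a at 10.8 ± 2.34 TPM, G6pc3 at 8.42 ± 1.28 TPM and Pck2 at 3.09 ± 0.449 TPM were the lowest. Of the 9 neighbouring pairs in this order, only Ppargc1a and G6pc3 had overlapping ranges. In knockdown livers the Pck1 and Fbp1 ranges met, Gpd1 stood beside Pcx with overlapping values, and G6pc3 overlapped both Ppargc1a and Pck2. In rescue livers the overlapping neighbours were Pck1 with Fbp1, Pcx with Gpd1, and G6pc3 with Ppargc1a.

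**Figure D1:**
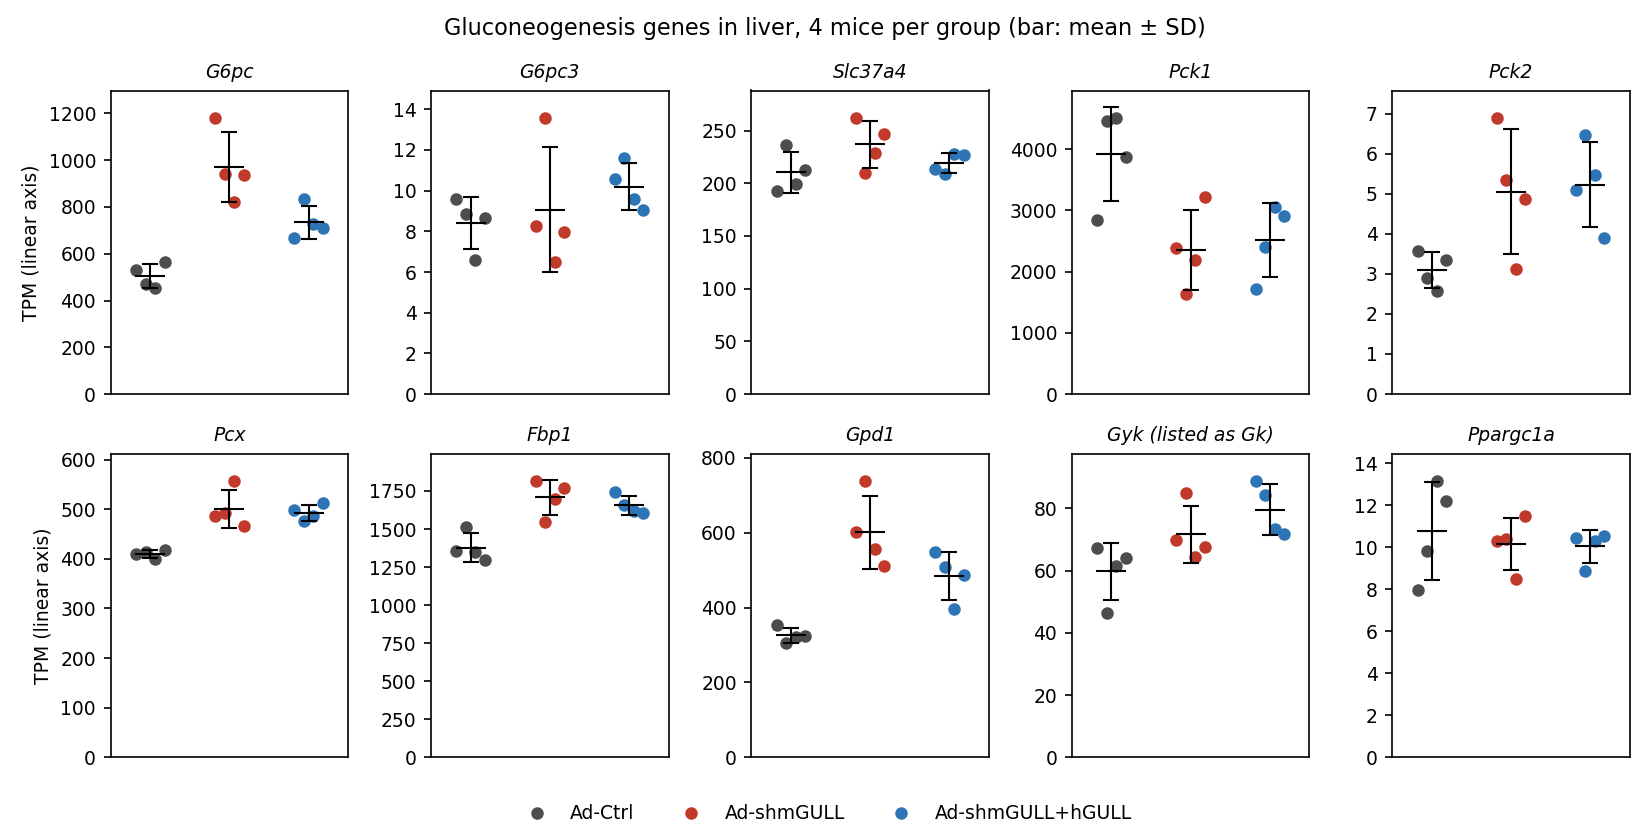
TPM of each gene (vertical axes, 1 panel a gene) in the 12 livers, coloured by group, with the group mean ± SD (n = 4). G6pc and Gpd1 of the knockdown and rescue livers sit above every control liver. Pck1 points of the knockdown and rescue livers sit below all controls but the lowest, and some are above that one. Ppargc1a points of the 3 groups overlap.

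The first comparison asked what loss of mGULL did to these transcripts. After the knockdown G6pc and Gpd1 rose, by 1.92-fold and 1.84-fold in mean TPM. Pcx and Fbp1 were 1.22-fold and 1.24-fold higher with no overlap between groups but did not pass the test after adjustment. Pck1 was at 0.601 of its control mean without passing that test, and Ppargc1a, G6pc3, Slc37a4 and Gyk did not pass it either. Fold changes below are differences of log2(TPM + 1) between group means, with standard errors (SE), 95% intervals and Benjamini-Hochberg adjusted p-values over all 16378 genes from 1 limma model of the 12 livers.

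G6pc encodes the liver's catalytic subunit of glucose-6-phosphatase, which releases free glucose. Its level was 531, 469, 454 and 567 TPM in the control livers and 1180.1, 943, 821 and 937 TPM in the knockdown livers. Every knockdown liver was above every control liver. The log2 fold change was 0.93 (SE 0.12, 95% interval 0.67 to 1.19), with a limma adjusted p of 0.00606. In the rescue livers G6pc was at 668, 833, 727 and 709.6 TPM, above all controls and overlapping the knockdown livers at 833 and 821 TPM. Rescue minus knockdown was -0.39 (SE 0.12, 95% interval -0.65 to -0.13, limma adjusted p = 0.369), and rescue minus control was 0.54 (SE 0.12, limma adjusted p = 0.0441).

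Slc37a4 encodes the transporter that carries glucose-6-phosphate into the endoplasmic reticulum, where G6pc acts. It was at 193, 236, 199 and 213 TPM in control livers, 262, 210.0, 229 and 247 TPM in knockdown livers and 214, 209, 228 and 227 TPM in rescue livers. The 3 groups overlapped. The log2 fold change was 0.17 after the knockdown (95% interval -0.02 to 0.36, limma adjusted p = 0.297), -0.11 from knockdown to rescue (limma adjusted p = 0.651) and 0.06 from control to rescue (limma adjusted p = 0.666). G6pc3, the widely expressed glucose-6-phosphatase subunit, ranged from 6.60 to 9.59 TPM in control, 6.51 to 13.6 TPM in knockdown and 9.05 to 11.6 TPM in rescue livers. Its log2 fold changes were 0.06, 0.19 and 0.25 in the same order of comparisons, with limma adjusted p of 0.890, 0.692 and 0.385. Of the bases in the exons of Slc37a4, 89.9% also lie in exons of Trappc4 on the other strand in the GENCODE M39 annotation. For G6pc3, 51.1% lie in exons of Hdac5, also on the other strand. This release is later than the one the study counted with, and overlaps in the study's release were not computed. Trappc4 averaged 23.4 TPM and Hdac5 19.5 TPM, and the strand setting used in counting was not given in the sources used here, so both genes' levels are uncertain to that extent.

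Pck1 commits oxaloacetate to gluconeogenesis in the cytosol. It was at 2843, 4449.7, 4505 and 3869 TPM in control livers, 2377, 1630.0, 2196 and 3216 TPM in knockdown livers and 1717, 2401, 3049 and 2914 TPM in rescue livers. Control mice 2, 3 and 4 were above all 8 knockdown and rescue livers, and the groups overlapped only through control mouse 1, which was below knockdown mouse 4 and 2 rescue mice. Knockdown minus control was -0.75 (SE 0.23, 95% interval -1.26 to -0.24, unadjusted p = 0.00707, limma adjusted p = 0.0950). Without control mouse 1 it was -0.90, with a limma adjusted p of 0.0482. That was the only 1 of 21 alternative analyses that called it, and the limma adjusted p reached 0.225 over the 21. Rescue minus knockdown was 0.11 (95% interval -0.40 to 0.61, limma adjusted p = 0.877), and rescue minus control was -0.65 (limma adjusted p = 0.122).

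Pck2, the mitochondrial form of the same enzyme, was a minor transcript in these livers. It was at 3.57, 2.90, 2.57 and 3.34 TPM in control, 6.89, 5.34, 3.11 and 4.88 TPM in knockdown and 5.09, 6.46, 5.47 and 3.90 TPM in rescue livers. All 4 rescue livers and 3 of 4 knockdown livers were above every control liver. The log2 fold change was 0.53 after the knockdown (limma adjusted p = 0.136), 0.06 from knockdown to rescue (limma adjusted p = 0.914) and 0.60 from control to rescue (limma adjusted p = 0.0943).

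Pcx encodes pyruvate carboxylase, the mitochondrial entry step for pyruvate and lactate. It was at 409, 415, 399 and 418 TPM in control, 486, 492, 556 and 466 TPM in knockdown and 499, 476, 485 and 513 TPM in rescue livers. All 8 knockdown and rescue livers were above all 4 controls. Knockdown minus control was 0.28 (95% interval 0.13 to 0.44, limma adjusted p = 0.0531), rescue minus knockdown was -0.02 (limma adjusted p = 0.938) and rescue minus control was 0.27 (limma adjusted p = 0.0656). Fbp1, fructose-1,6-bisphosphatase, had the same arrangement of groups, with 1356, 1515, 1347 and 1295 TPM in control, 1813, 1547, 1699 and 1771 TPM in knockdown and 1745, 1655, 1620.1 and 1604 TPM in rescue livers. Its log2 fold changes were 0.31 (95% interval 0.12 to 0.50, limma adjusted p = 0.0760), -0.04 (limma adjusted p = 0.870) and 0.27 (limma adjusted p = 0.102).

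Gpd1 and Gyk bring glycerol into the pathway. Gpd1, the cytosolic glycerol-3-phosphate dehydrogenase, was at 353, 305, 321 and 325 TPM in control, 602, 737, 556 and 511 TPM in knockdown and 547, 508, 396 and 486 TPM in rescue livers. All 8 knockdown and rescue livers were above all controls, and the highest rescue liver overlapped the lowest knockdown liver. Knockdown minus control was 0.87 (SE 0.12, 95% interval 0.60 to 1.14, limma adjusted p = 0.00747), rescue minus knockdown was -0.31 (unadjusted p = 0.0273, limma adjusted p = 0.421) and rescue minus control was 0.56 (limma adjusted p = 0.0432). An antisense RNA, Gm16537, shares 53.1% of the exon bases of Gpd1 and averaged 0.735 TPM. Gyk, glycerol kinase, was at 67.4, 46.4, 61.5 and 64.0 TPM in control, 69.9, 85.0, 64.5 and 67.5 TPM in knockdown and 88.7, 84.2, 73.4 and 71.9 TPM in rescue livers. Only its rescue livers were clear of the controls, and its log2 fold changes were 0.26 (limma adjusted p = 0.260), 0.15 (limma adjusted p = 0.659) and 0.41 (limma adjusted p = 0.0845).

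Ppargc1a encodes PGC-1α, the coactivator through which fasting signals raise several of these enzymes. It was at 7.96, 9.84, 13.1 and 12.2 TPM in control, 10.3, 10.4, 8.49 and 11.5 TPM in knockdown and 10.5, 8.87, 10.3 and 10.5 TPM in rescue livers. The 8 knockdown and rescue livers all lay inside the range of the controls. The log2 fold change was -0.06 after the knockdown (95% interval -0.37 to 0.24, limma adjusted p = 0.854), -0.01 from knockdown to rescue (limma adjusted p = 0.979) and -0.07 from control to rescue (limma adjusted p = 0.762).

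**Figure D2:**
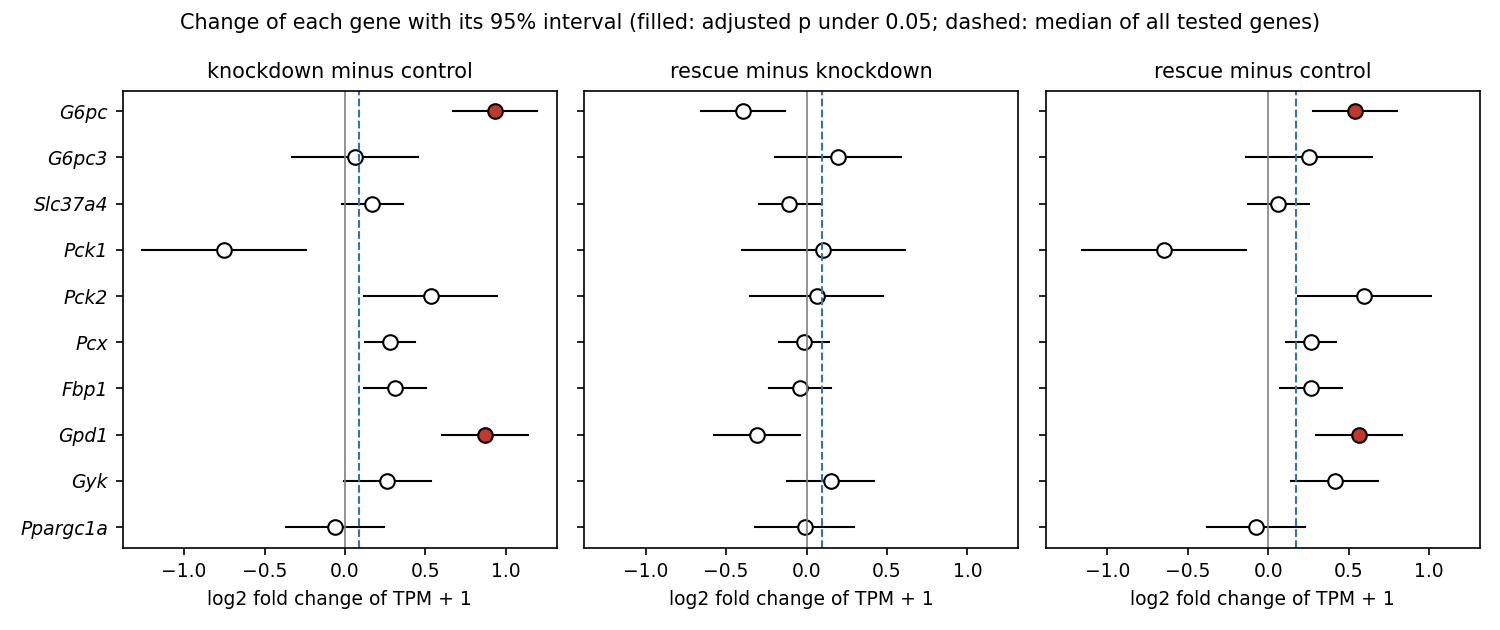
Log2 fold change of TPM + 1 (horizontal axes) of each gene with its 95% interval in the 3 comparisons; filled points have an adjusted p under 0.05 and the dashed line is the median of all tested genes. G6pc and Gpd1 are filled at 0.93 and 0.87 for knockdown minus control and at 0.54 and 0.56 for rescue minus control, Pck1 lies at -0.75 and -0.65 unfilled, and no point is filled for rescue minus knockdown.

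Counted together, 2 of the 10 members were called higher after the knockdown at an adjusted p under 0.05 (G6pc and Gpd1), beside 2.44% of all genes tested, and none was called lower, beside 0.794%. By the threshold the study named, which asks for more than 0.5 on the log2 scale and an unadjusted p under 0.05, 3 were higher (G6pc, Gpd1 and Pck2) beside 5.35% of genes, and Pck1 alone was lower beside 2.30%. The groups did not overlap for 4 members that were higher (G6pc, Pcx, Fbp1 and Gpd1), beside 6.93% of genes, and for none that was lower, beside 2.06%. Over all genes tested the median was 0.087. With the livers rescaled to a common median of gene ratios, G6pc and Gpd1 were still called, while the split of all called genes went from 399 higher and 130 lower to 350 higher and 341 lower.

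The rescue minus knockdown comparison asked whether hGULL brought these transcripts back. No member was called in either direction, beside 0% of genes higher and 0% lower: limma called none of the 16378 genes, 1757 had an unadjusted p under 0.05, and the smallest adjusted p was 0.117. By the study's threshold none of the members was higher, beside 2.33% of genes, or lower, beside 0.672%. None was free of overlap in the higher direction, beside 5.40% of genes, or in the lower direction, beside 0.983%. G6pc and Gpd1 had the lowest values of the 10 members, -0.39 and -0.31, beside a median of 0.093 over all genes.

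Against control, the rescue livers had 2 members called higher (G6pc and Gpd1), beside 2.12% of genes, and none lower, beside 0.0244%. By the study's threshold the members beyond it were those of the knockdown comparison, with 3 higher beside 6.84% of genes and Pck1 lower beside 0.641%. The groups did not overlap for 6 members that were higher (G6pc, Pck2, Pcx, Fbp1, Gpd1 and Gyk), but 21.4% of all genes were arranged so, and for none that was lower, beside 0.855%. The median of all genes tested was 0.17 in this comparison. Relative to that median G6pc was at 0.37, Gpd1 at 0.39, Pck2 at 0.42, Gyk at 0.24, Pcx and Fbp1 at 0.09, Slc37a4 at -0.11, Ppargc1a at -0.25 and Pck1 at -0.82. With median-of-ratios scaling no member was called: G6pc was at 0.34 (limma adjusted p = 0.299) and Gpd1 at 0.36 (limma adjusted p = 0.164), and 11 genes in all were called in place of 352. Without control mouse 2, 3 or 4, knockdown mouse 4 or any 1 rescue mouse, neither gene was called, with G6pc at 0.48 to 0.60 (limma adjusted p 0.0600 to 0.149) and Gpd1 at 0.50 to 0.66 (limma adjusted p 0.0532 to 0.154). Both comparisons with control use the same 4 control livers.

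Ratios between 2 members within a liver do not depend on how the liver is scaled, and they are given without a test. The G6pc to Pck1 ratio was 0.101 to 0.187 in control, 0.291 to 0.578 in knockdown and 0.238 to 0.389 in rescue livers, a log2 difference of 1.69 from control to knockdown and -0.50 from knockdown to rescue. Every knockdown and rescue liver was above every control liver. The ratio of G6pc to its transporter Slc37a4 was 1.98 to 2.75, 3.59 to 4.51 and 3.13 to 3.98 in the same order of groups. The Pck1 to Fbp1 ratio was 2.10 to 3.34 in control, 1.05 to 1.82 in knockdown and 0.984 to 1.88 in rescue livers, so that the rescue livers covered the range of the knockdown livers.

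The Gpd1 to Gyk ratio had another order of groups. It was 5.08 to 6.57 in control, 7.57 to 8.66 in knockdown and 5.40 to 6.76 in rescue livers, with the rescue livers below all knockdown livers and overlapping the controls. The log2 difference was 0.60 from control to knockdown, -0.46 from knockdown to rescue and 0.14 from control to rescue. Of the remaining ratios, Pck1 to Pck2 was 796 to 1755, 305 to 706 and 337 to 746, Pcx to Pck1 was 0.0886 to 0.144, 0.145 to 0.302 and 0.159 to 0.291, and G6pc to G6pc3 was 53.0 to 68.8, 69.5 to 143 and 63.2 to 78.4. For the first and the second of these the knockdown and rescue livers were clear of the controls, and for the G6pc to G6pc3 ratio the knockdown livers were.

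**Figure D3:**
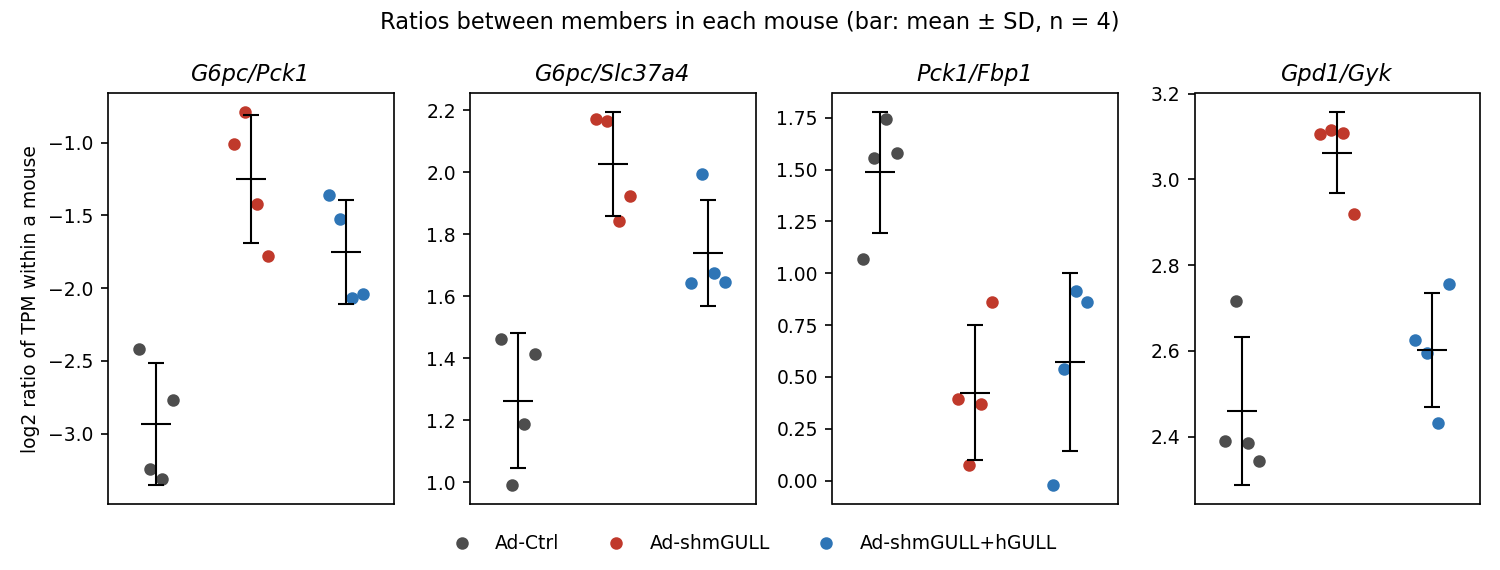
Log2 of the TPM ratio of a pair of genes within each liver (vertical axes, 1 panel a pair) by group, with bars for the mean ± SD (n = 4). For G6pc to Pck1 and G6pc to Slc37a4 both shmGULL groups sit above the controls, for Pck1 to Fbp1 both sit below, and for Gpd1 to Gyk the rescue livers sit below the knockdown livers at ratios of 5.40 to 6.76.

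Around the members, some genes of the reactions that run in both directions were called higher after the knockdown. So were some of a list of opposing glycolytic steps and regulators of glucose use. Of 8 tested genes of the cytosolic reactions shared with glycolysis, 3 rose, none was called lower, and the list's median was 0.34 beside 0.087 for all genes. Gpi1, glucose-6-phosphate isomerase, went from 89.4 ± 14.7 to 184 ± 44.4 TPM (SD, n = 4) with a log2 fold change of 1.02 (limma adjusted p = 0.00995). Eno1, an enolase, changed by 0.71 (limma adjusted p = 0.0194) and Pgk1, phosphoglycerate kinase, by 0.36 (limma adjusted p = 0.0396), the last called in 8 of 21 alternative analyses. After the knockdown 0 (only the 2 groups compared) to 4 genes of the list were called over the 21 alternatives, with 1 called without control mouse 2, 3 or 4. Where 4 were called, as with median-of-ratios scaling, 3 were higher and 1 was lower. In rescue minus control 2 of the 8 were called higher, and none with median-of-ratios scaling.

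Of 11 genes of the opposing glycolytic steps and of regulators of glucose use, 4 rose, none was called lower, and the median was 0.27. Of the 4 only Pklr and Pfkl encode glycolytic enzymes, so the count and the median do not give the direction of the opposing steps. Pklr, the liver pyruvate kinase, was at 197, 173, 144 and 134 TPM in control and 375, 531, 456 and 327 TPM in knockdown livers, with no overlap. Its log2 fold change was 1.37 (limma adjusted p = 0.00606). Pdk1, a kinase that inhibits pyruvate dehydrogenase, changed by 0.68 (limma adjusted p = 0.00747) and Pfkl, the liver phosphofructokinase, by 0.51 (limma adjusted p = 0.0452). Gckr changed by 0.33 (limma adjusted p = 0.0465). Pfkl and Gckr were each called in 6 of 21 alternative analyses, and the list's calls came to 2 with median-of-ratios scaling and ranged from 2 to 5 over all 21, with 2 when control mouse 2, 3 or 4, knockdown mouse 2 or any 1 rescue mouse was left out. The 5 calls were 4 higher and 1 lower with a mean of at least 5 TPM or without control mouse 1, and 5 higher without knockdown mouse 3. In rescue minus control 3 of the 11 were called higher, and none with median-of-ratios scaling.

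None of 20 genes of substrate entry and shuttles was called after the knockdown, with a median of 0.11. The smallest p belonged to Mdh2, the mitochondrial malate dehydrogenase, at 0.39 (limma adjusted p = 0.0503). With median-of-ratios scaling 2 of the 20 were called, 1 in each direction, and 3 were without control mouse 1 or knockdown mouse 3 and 1 without knockdown mouse 1 or 4. Of 27 transcriptional and hormonal regulators, 1 rose and none was called lower, with a median of 0.031. It was Irs1, an insulin receptor substrate, which went from 17.0 ± 2.07 to 23.1 ± 2.39 TPM (SD, n = 4), a log2 fold change of 0.43 (limma adjusted p = 0.0448), called in 5 of 21 alternative analyses. Of 17 tested genes listed as fasting or cyclic AMP targets, 1 rose and none was called lower, with a median of 0.15 and 11 values above 0. Tat of this list had a lower mean after the knockdown, 1564 against 2680 TPM in control, without being called. The called gene was Ppp1r3b, which directs protein phosphatase 1 to glycogen, at 0.86 (limma adjusted p = 0.0115). Whether it responds to fasting in these mice was not tested. With median-of-ratios scaling 1 was higher and 1 lower, 4 were called without knockdown mouse 3, 3 without control mouse 1, 2 without knockdown mouse 4 and 0 with only the 2 groups compared. In rescue minus control Irs1 and Ppp1r3b were also called higher, none of the 20 entry genes was called, and with median-of-ratios scaling no gene of these lists was called in that comparison.

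**Figure D4:**
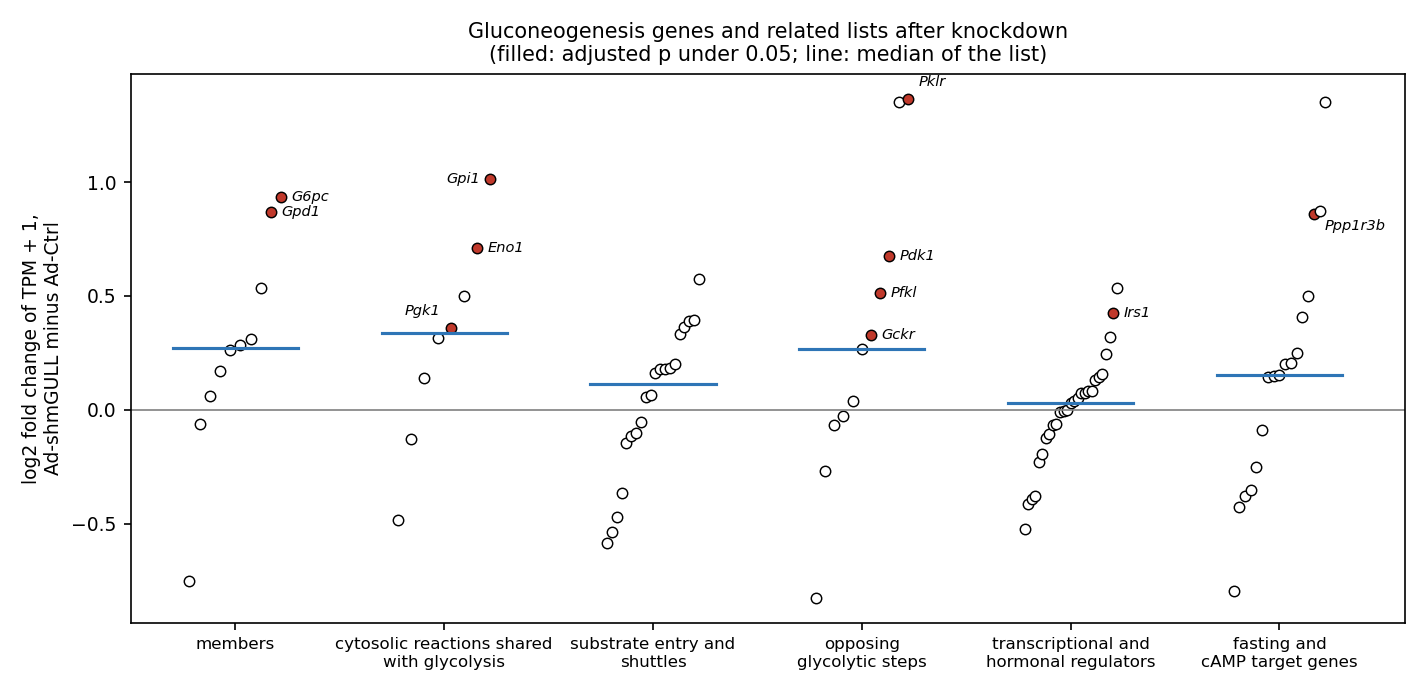
Log2 fold change of TPM + 1, knockdown minus control (vertical axis), of each tested member and of the tested genes of 5 related lists (horizontal axis), with filled points for an adjusted p under 0.05 and a line at each list's median. Filled points lie above 0 in every list that has any, and the medians run from 0.031 for the regulators to 0.34 for the reactions shared with glycolysis.

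Crtc2 itself, the coactivator the study was concerned with, was at 26.0 ± 2.95, 27.5 ± 1.87 and 29.0 ± 2.10 TPM (SD, n = 4) in control, knockdown and rescue livers, with a log2 fold change of 0.08 after the knockdown (limma adjusted p = 0.670). Creb1 was at 6.37 ± 0.813, 6.39 ± 1.20 and 7.52 ± 0.832 TPM. Foxo1, the insulin-restrained activator of G6pc and Pck1, was at 46.3 ± 5.37, 42.5 ± 5.43 and 46.0 ± 3.83 TPM. All 3 were chosen for their place in the pathway after their values were seen, and the groups overlapped for each.

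The livers were checked against marker lists, since in bulk tissue fewer cells of a type and less RNA per cell cannot be told apart. Hepatocyte markers were abundant in every liver, led by Alb at a mean of 56814 TPM, and their summed level was 77493 to 113994 TPM in control, 82529 to 96886 TPM in knockdown and 70423 to 83895 TPM in rescue livers. Of the kidney and intestine markers, tissues that also express G6pc and Pck1, 8 of 10 averaged under 1 TPM and 3 were at 0 in every liver, with Fabp2 the highest at 138 TPM. None of 7 hepatocyte, 12 periportal, 12 pericentral, 10 Kupffer cell, 8 stellate cell, 9 lymphocyte, 4 cholangiocyte and 2 kidney and intestine genes tested was called after the knockdown. These counts moved when 1 library was left out. Without control mouse 1, 4 periportal (3 lower, 1 higher), 2 stellate cell (higher) and 1 hepatocyte gene (lower) were called. Without knockdown mouse 3, 2 hepatocyte, 1 periportal and 1 Kupffer cell gene were lower. Without rescue mouse 1, 1 pericentral gene was higher. Processing moved them too. A mean of at least 5 TPM, quantile normalization and the replicate block each gave 1 hepatocyte and 1 periportal gene lower. A pseudocount of 0.1 gave 1 hepatocyte gene lower. Of the pericentral genes, 1 was higher with the 5 TPM mean and 1 lower with the block. The block with median-of-ratios scaling gave 1 periportal and 1 pericentral gene lower. The smallest p-values belonged to Fgb, a fibrinogen chain, at -0.52 (limma adjusted p = 0.0501), Tbx3 of the pericentral list at 0.52 (limma adjusted p = 0.0562) and Rnase4 of the periportal list at -0.70 (limma adjusted p = 0.0669). The list medians were -0.28 for hepatocyte, -0.019 for Kupffer cell, 0.23 for stellate cell, 0.21 for lymphocyte and -0.011 for cholangiocyte genes. Hsd17b13 of the periportal list was the only one called in rescue minus control, at 0.47 (limma adjusted p = 0.0426). It was called in 8 of 21 alternative analyses and was at 0.26 with median-of-ratios scaling (limma adjusted p = 0.202). Periportal genes, named for the zone where gluconeogenesis is most active, had a median of -0.28 after the knockdown and pericentral genes one of -0.042, with summed levels of 9837 to 12112 TPM in control, 8379 to 10059 TPM in knockdown and 9234 to 10771 TPM in rescue livers for the first and 8304 to 11095, 7687 to 11641 and 7814 to 10692 TPM for the second.

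Of 15 interferon response genes 4 fell after the knockdown, none was called higher, all 15 values were negative and the median was -0.85. Ifit1 changed by -1.33 (limma adjusted p = 0.0238), Irgm1 by -1.14 (limma adjusted p = 0.0450), Isg15 by -1.11 (limma adjusted p = 0.0395) and Rsad2 by -0.90 (limma adjusted p = 0.0260), with Irgm1 and Isg15 called in 7 of 21 alternative analyses. The summed level of the list was 1297 to 2774 TPM in control, 489 to 1306 TPM in knockdown and 1643 to 2216 TPM in rescue livers. With median-of-ratios scaling or without knockdown mouse 3, 8 of the 15 were called lower, and none was with no filter, with only the 2 groups compared or without control mouse 2 or 3. The count was 1 without knockdown mouse 2 or 4, and 2 without any 1 rescue mouse. From knockdown to rescue all 15 values were positive, with a median of 0.71 and none called. Of 8 sinusoidal endothelium genes 1 rose after the knockdown, Stab2 at 0.54 (limma adjusted p = 0.0476, called in 7 of 21 alternative analyses), with a list median of 0.38 and a summed level of 163 to 249, 240.4 to 336 and 256 to 285 TPM in the same order of groups. None of the 8 was called in the other comparisons, 4 values were positive from knockdown to rescue, and the summed levels of the control and knockdown livers overlapped. After the knockdown 3 were called without control mouse 1 and 2 without knockdown mouse 3. The part of either list in the changes of G6pc, Gpd1 and the other members was not tested.

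The genes whose pattern over the 12 livers was nearest to that of a member were found by the root-mean-square distance between standardised log2 values, in SD units. For G6pc they were Klc4 at 0.214, Fkbp4 at 0.274 and Scarf1 at 0.299, where the median distance of all genes was 1.22. Klc4 was at 66.2 to 73.0 TPM in control, 81.4 to 94.4 TPM in knockdown and 76.3 to 89.1 TPM in rescue livers. For Pck1 they were Serpina3k at 0.266, Tat, the tyrosine aminotransferase of amino acid breakdown, at 0.339 and Cps1, the first enzyme of the urea cycle, at 0.365, with a median of 1.59. Tat was at 1598, 2935, 3257 and 2932 TPM in control, 1863, 834, 1635 and 1923 TPM in knockdown and 1175, 1371, 1747 and 1659 TPM in rescue livers, so that control mouse 1 was again the lowest control. For Ppargc1a the nearest were Gm43598 at 0.472, Brap at 0.555 and Gtpbp4-ps1 at 0.559, with a median of 1.42. The 12 livers share their groups, so these distances describe the table and carry no p.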

How the data were processed

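The study sequenced strand-specific TruSeq RNA libraries of 12 mouse livers. Per the labels and methods, reads were trimmed with fastp 0.23.2, checked with FastQC 0.11.8, aligned to GRCm38.p6 with HISAT2 2.2.1.0 and assigned to GENCODE genes with featureCounts of Subread 2.0; the tool that made TPM and the test used were not given in the sources used here. The authors deposited TPM per gene, one column a mouse, and grouping followed the sample titles.

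The 10 genes and all lists were chosen with earlier results of these data known, and 2 genes left out of the lists are not reported here. TPM was transformed to log2(TPM + 1), features with a mean under 1 TPM were left out, and 1 limma model (limma 3.58.1, R 4.3.3; moderated variances with trend, two-sided) of the 3 groups gave each comparison. P-values were adjusted by Benjamini-Hochberg over 16378 genes, with a threshold of 0.05. On simulated data the fit recovered 45.1% of log2 changes of 0.5 and 87.2% of changes of 1 in the more abundant genes, with 5.83% of calls false. A gene that was not called may therefore still have changed. The simulated noise was independent between genes, with no shift shared by a whole liver, so the share of false calls here may differ. Overlaps of exons came from GENCODE M39, a later release than the study's. Other names, spans and promoters came from RefSeq. Named list genes were up to 4 called genes with the largest change after the knockdown, or the smallest p where none was called, plus the most abundant markers. Same-numbered mice of 2 groups deviated with correlations of -0.244 to 0.154, and between rescue and knockdown mice 2, 3 and 4 correlated best with their own number. Such correlations cannot exclude a shared batch, and the main fit did not pair samples. Replicates left out, scaling, filters, pseudocount, array weights, trend and a replicate block were tried as alternatives.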

Additional observations from a re-analysis of the deposited data

Results flagged for a closer look

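Of 30 sets of 4 mice, 1 per gene and group, 1 held a liver far from the others. Ppargc1a was at 8.87 TPM in mouse 2 of the rescue group, below 10.32 to 10.53 TPM in the other 3, and the gap was 0.877 of the group's whole range, above the critical value of Dixon's test. Chance flags about 5% of such sets, and the value lay inside the range of the control livers.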

How the results depend on the processing

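After the knockdown G6pc (0.83 to 1.01, limma adjusted p 0.00399 to 0.0358) and Gpd1 (0.77 to 0.94, limma adjusted p 0.00544 to 0.0358) stayed called in all 21 alternatives set out at the start; with quantile normalization 4 members were called in place of 2, adding Pcx and Fbp1. Against control, the 2 members called in the rescue livers became 0 with no filter, median-of-ratios scaling, quantile normalization, no trend or the replicate block, 4 with only the 2 groups compared and 7 with array weights, and 0 (without Ad-Ctrl mouse 2, 3 or 4, Ad-shmGULL mouse 4 or any rescue mouse) to 3 (without Ad-shmGULL mouse 1 or 3) with a replicate left out; G6pc and Gpd1 held in 8 of 21 alternatives each. Over all genes, the 529 called after the knockdown became 236 with no filter, 33 with only the 2 groups compared, 344 with no trend, and 165 (without Ad-Ctrl mouse 3) to 1057 (without Ad-shmGULL mouse 3) with a replicate left out. The 352 called between rescue and control became 9 with no filter, 568 when only features of 5 TPM or more on average were kept, 11 with median-of-ratios scaling, 11 with quantile normalization, 1693 with only the 2 groups compared, 35 with no trend, 3184 with array weights, and 3 (without Ad-Ctrl mouse 3) to 1068 (without Ad-Ctrl mouse 1) with a replicate left out. Rescue minus knockdown gave 0 to 2 genes with a replicate left out. With the replicate block 71 genes were called between rescue and control, and with the block and median-of-ratios scaling, chosen after seeing the data, 5 genes and 0 members. The labels do not say whether the numbers pair the mice.

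Changes of sign came only in members that were not called. For knockdown minus control, G6pc3 was at -0.033 with median-of-ratios scaling, with or without the block, and -0.028 with quantile normalization, and at -0.13 to 0.19 with a replicate left out, as was Ppargc1a at -0.19 to 0.033. For rescue minus knockdown, Pck1 was at -0.013 with quantile normalization, -0.026 with array weights and -0.058 to 0.28 with a replicate left out. Pck2 was at -0.019 with median-of-ratios scaling, with or without the block, -0.020 with quantile normalization, and at -0.11 to 0.20 with a replicate left out, beside Pcx at -0.049 to 0.035 and Ppargc1a at -0.089 to 0.043. For rescue minus control, Slc37a4 was at -0.14 with median-of-ratios scaling, -0.060 with quantile normalization and -0.14 with the block and scaling, and Ppargc1a was at -0.20 to 0.021 with a replicate left out. The cause of these changes was not tested. Pck2 gives no value with a mean of at least 5 TPM. Of the list genes called after the knockdown, Pklr and Pdk1 held in all 21 alternatives, Gpi1 and Ppp1r3b in 20, Eno1 in 17 and Ifit1 and Rsad2 in 15. TPM keeps no depth, so no counting error can be given.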

Other observations

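Brap was at 63.7 to 83.5 TPM in control, 66.5 to 80.8 TPM in knockdown and 70.6 to 77.9 TPM in rescue livers. Fkbp4, a co-chaperone of HSP90, was at 86.2 to 99.4 TPM in control, 124 to 162 TPM in knockdown and 118 to 135 TPM in rescue livers, with both shmGULL groups above every control. Gtpbp4-ps1, a pseudogene, was at 9.03, 23.9, 57.3 and 59.1 TPM in the 4 control livers and 9.16 to 31.7 TPM in the others. Pdk4, which spares pyruvate in fasting, was at 1.35 on the log2 scale after the knockdown without passing the test (limma adjusted p = 0.0884), and Pfkfb3 was at -0.83 (limma adjusted p = 0.0501). These genes were chosen after their values were seen.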
